A study of Mus musculus with 4 samples.

Results

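Ndufa4, Ndufa4l2, Cox4i1, Cox4i2 and Lonp1 are 5 nuclear genes through which the end of the mitochondrial respiratory chain is changed when oxygen is low. They were found by symbol and are 5 of the 37620 genes of the count table. Ndufa4l2 was selected on its rise in MUT_CTCF in these same libraries, so its values and every quantity built on them are a description and carry no test. RNA was sequenced from mouse embryonic stem cells (mESCs) to ask whether the sugar O-GlcNAc on CTCF, the protein that anchors chromatin loops, bears on gene expression. Both lines, WT_CTCF and MUT_CTCF, came from mESCs whose own CTCF carries a degron and a fluorescent tag and was removed with auxin, and both express CTCF from a vector. WT_CTCF mESCs received wild-type CTCF, and MUT_CTCF mESCs received a mutant that lacks O-GlcNAc at T668. Cells were grown with LIF and serum, and the oxygen in culture is not given in the sources used here. Each line was derived from picked clones with a level of exogenous CTCF close to the endogenous level, so the genotype and the history of a clone cannot be told apart. There were 2 libraries per line, with 40977464 and 40824156 counts in WT_CTCF and 40899401 and 40524694 in MUT_CTCF. The methods of the study call them biological replicates. Neither the methods nor the labels name separate cultures, so the p-values measure only the spread between these libraries, part of which may be technical.

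Cytochrome c oxidase, or complex IV, passes electrons to oxygen, and its nuclear subunits adjust how it works. NDUFA4 was long listed in complex I and is now counted as a subunit of complex IV, and its paralog NDUFA4L2 is induced by the hypoxia-inducible factor HIF-1 and lowers oxygen use. COX4 exists as a common isoform, COX4I1, and a second one, COX4I2, which HIF-1 raises in hypoxia together with LONP1, the matrix protease that degrades COX4I1.

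Ndufa4l2 was higher in MUT_CTCF, Ndufa4 and Cox4i1 were slightly lower, and neither Cox4i2 nor Lonp1 passed the test. Levels are compared between genes as RPKM, the reads per kilobase of exon at a fixed library size after scaling. In WT_CTCF the order of the levels was Cox4i1 at 833 ± 12.2 RPKM, Ndufa4 at 217 ± 7.72, Lonp1 at 103 ± 2.00, Ndufa4l2 at 1.96 ± 0.053 and Cox4i2 at 1.76 ± 0.067 (mean ± SD, n = 2). Ndufa4l2 and Cox4i2, the closest neighbours in that order, differed by far less than either differed from its partner. They rested on 78 and 75 reads and on 55 and 58 reads in WT_CTCF. These SDs do not cover the counting error of so few reads, so the order of Ndufa4l2 and Cox4i2 in WT_CTCF is not settled. In MUT_CTCF the order of the means was the same, with Ndufa4l2 at 7.31 ± 0.147 RPKM and Cox4i2 at 2.27 ± 0.065 (mean ± SD, n = 2) further apart. All 5 genes passed the filter on low counts, which 16264 genes passed.

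**Figure D1:**
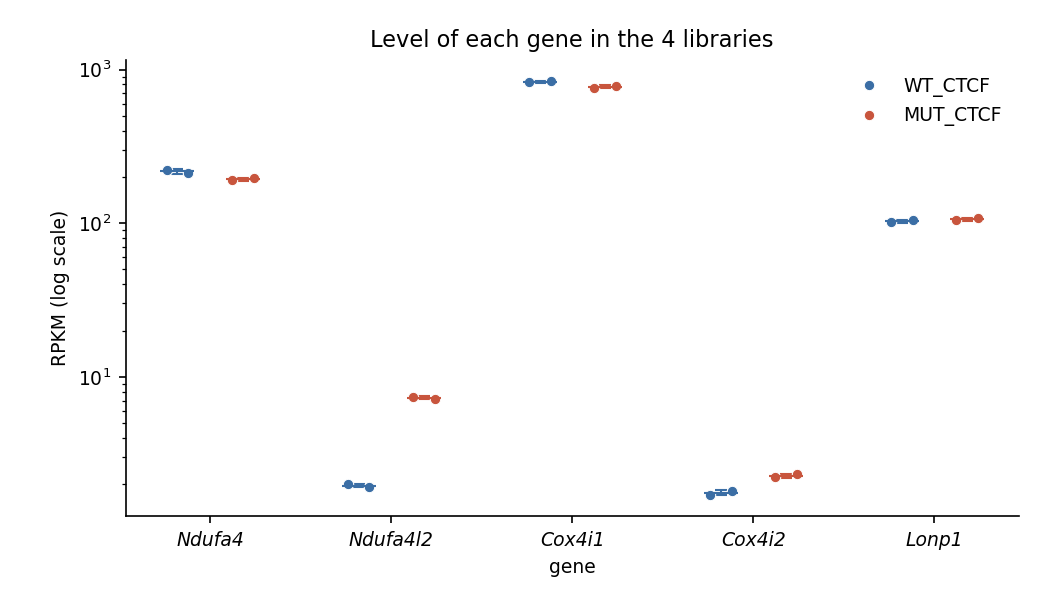
RPKM of the 5 genes on a log axis, with a point for each library, a bar at the mean of 2 libraries and whiskers of 1 SD. The common forms and Lonp1 lie between 101 and 842 RPKM in all 4 libraries, and the 2 hypoxic forms lie between 1.71 and 7.42 RPKM.

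Ndufa4l2 (ENSMUSG00000040280), the paralog that HIF-1 induces, lies on the plus strand of chromosome 10 of mm9 from 126951995 to 126954208. It had 78 reads in WT_CTCF replicate 1 and 75 in replicate 2, and 293 reads in MUT_CTCF replicate 1 and 281 in replicate 2. Both MUT_CTCF libraries were high, both WT_CTCF libraries were low, and the replicates of each line lay close together. After scaling to the mean library these were 76.6 ± 2.08 normalized counts in WT_CTCF and 286.4 ± 5.75 in MUT_CTCF (SD, n = 2), which is a log2 fold change of 1.90 for MUT_CTCF over WT_CTCF (standard error, SE, 0.200). That was the largest log2 fold change among the named genes with a mean of at least 100 normalized counts, followed by Bnip3 at 1.60. In bulk RNA, more cells with a transcript and more transcript per cell cannot be told apart.

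Ndufa4 (ENSMUSG00000029632), the constitutive subunit, lies on the minus strand of chromosome 6 from 11850373 to 11857446. It had 4463 and 4241 reads in WT_CTCF and 3857 and 3908 in MUT_CTCF. Both MUT_CTCF values were below both WT_CTCF values, opposite in direction to those of its paralog. Normalized counts were 4361 ± 155 in WT_CTCF and 3875 ± 72.8 in MUT_CTCF (SD, n = 2). The log2 fold change was -0.17 (SE 0.047, adjusted p = 0.0273 by the quasi-likelihood fit of edgeR, with Benjamini-Hochberg adjustment over all tested genes). This call ended with DESeq2 (adjusted p = 0.0887), with scaling by library size only (0.0519), without a filter on low counts (0.269) and with any 1 of the 4 libraries left out (0.0536 to 0.499), and over all alternatives the adjusted p ran from 0.0105 to 0.499. Of the 443 stretches of 50 bases in its transcript, 29 (6.55%) also occur elsewhere in the genome, on 2 chromosomes, so its counts of uniquely mapped reads are less certain there. The other 4 genes had no such stretch.

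Per kilobase of exon, Ndufa4l2 made up 0.888% of the reads of its pair in WT_CTCF replicate 1 (95% Clopper-Pearson interval 0.702 to 1.11) and 0.898% in replicate 2 (0.706 to 1.13). In MUT_CTCF its share was 3.75% in replicate 1 (3.33 to 4.20) and 3.55% in replicate 2 (3.15 to 3.99). These intervals cover counting error only, and for Ndufa4l2 they describe the difference on which it was selected. The mean share went from 0.893 ± 0.0074% to 3.65 ± 0.137% (SD, n = 2), a ratio of 4.09. Even so, Ndufa4 remained the main form, at 111 times the RPKM of Ndufa4l2 in WT_CTCF and 26.4 times in MUT_CTCF. The RPKM of Ndufa4 fell by 24.2 between the means of the lines, while that of Ndufa4l2 went up by 5.36, so the sum of the pair went from 219 ± 7.77 to 200.4 ± 3.48 RPKM (SD, n = 2).

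Cox4i1 (ENSMUSG00000031818), the common isoform of COX4, lies on the plus strand of chromosome 8 from 123192190 to 123198109. It had 22798 and 23258 reads in WT_CTCF and 21197 and 21605 in MUT_CTCF. As with Ndufa4, both MUT_CTCF libraries lay below both WT_CTCF libraries. Normalized counts were 23073 ± 338 in WT_CTCF and 21361 ± 491 in MUT_CTCF (SD, n = 2), with a log2 fold change of -0.11 (SE 0.027, adjusted p = 0.0110 by the quasi-likelihood fit of edgeR). The call ended when low counts were not filtered (adjusted p = 0.241) and with any 1 library left out (0.0631 to 0.484), and over all alternatives the adjusted p ran from 0.00224 to 0.484.

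Cox4i2 (ENSMUSG00000009876), the isoform that HIF-1 raises, lies on the plus strand of chromosome 2 from 152579909 to 152590773. Its reads numbered 55 and 58 in WT_CTCF and 72 and 74 in MUT_CTCF. The lines did not overlap, but at these counts the difference did not pass the test. The log2 fold change was 0.36 (SE 0.334, approximate 95% interval -0.29 to 1.02, adjusted p = 0.682 by the quasi-likelihood fit of edgeR). Cox4i2 made up 0.207% and 0.214% of its pair per kilobase in WT_CTCF and 0.292% and 0.294% in MUT_CTCF, with Clopper-Pearson intervals that overlap between the lines (0.156 to 0.277 over the WT_CTCF libraries and 0.228 to 0.369 over the MUT_CTCF libraries). The ratio of the mean shares was 1.39, and Cox4i1 stayed 473 times as abundant as Cox4i2 in RPKM in WT_CTCF and 340.2 times in MUT_CTCF. The summed RPKM of the pair went from 835 ± 12.3 to 774 ± 17.8 (SD, n = 2), nearly all of it Cox4i1.

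**Figure D2:**
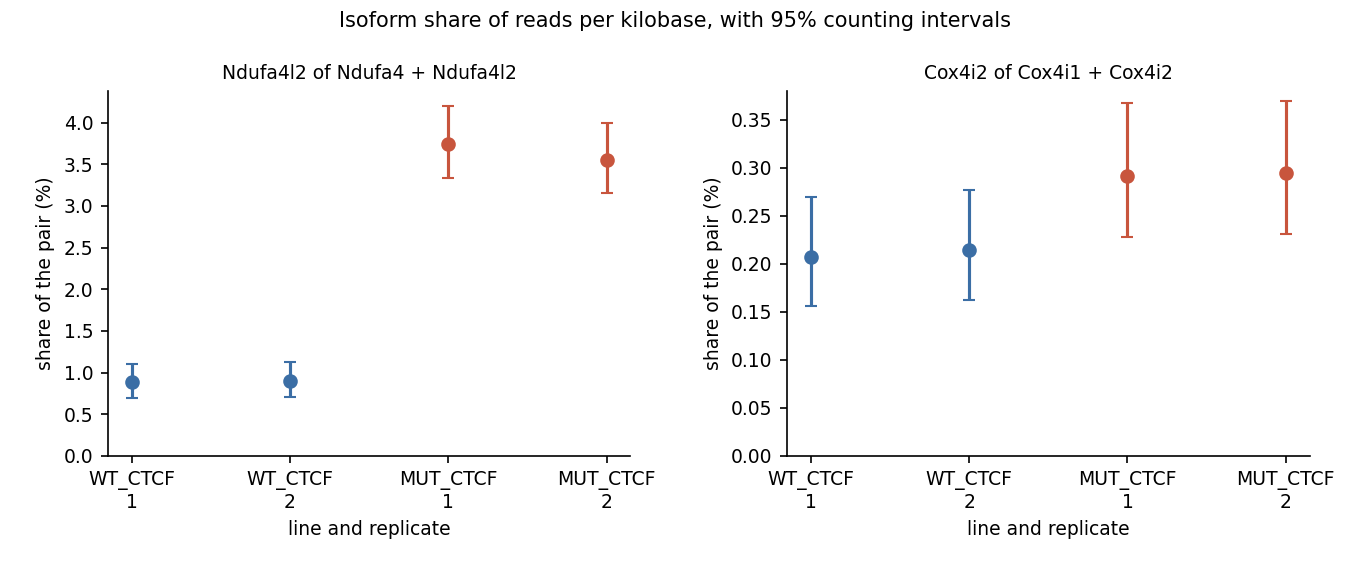
Share of each pair's reads per kilobase of exon that fell on Ndufa4l2 (left, percent of Ndufa4 plus Ndufa4l2) and on Cox4i2 (right, percent of Cox4i1 plus Cox4i2) in each library, with 95% Clopper-Pearson intervals. Ndufa4l2 was selected on its rise, so its panel is a description, and the Cox4i2 intervals overlap between the lines.

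Lonp1 (ENSMUSG00000041168), the gene of the matrix protease, lies on the minus strand of chromosome 17 from 56753724 to 56766326. It had 12227 and 12559 reads in WT_CTCF and 12713 and 12907 in MUT_CTCF. After scaling, the higher WT_CTCF library and the lower MUT_CTCF library were nearly equal, at 12588 and 12603 normalized counts. The log2 fold change was 0.042 (SE 0.032, approximate 95% interval -0.020 to 0.104, adjusted p = 0.593 by the quasi-likelihood fit of edgeR), so any rise larger than 0.104 lies outside the interval of this fit. With 1 library left out the log2 fold change ran from 0.020 to 0.063, so this limit depends on the libraries used.

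Of the 4 genes not selected on their rise, 2 were lower and 0 were higher at an adjusted p under 0.05 in edgeR, where 1.61% of the 16264 tested genes were lower (262 genes), 1.56% were higher (253 genes) and 3.17% moved in either direction. At an unadjusted p under 0.05 the counts for these 4 were the same 2 lower and 0 higher, where 7.65% of all tested genes were lower (1245 genes) and 7.61% were higher (1238 genes). DESeq2 called 1 of them lower, Cox4i1, and 0 higher, where it called 114 of the 16264 genes lower and 131 higher. These shares and counts are the background for the adjusted, unadjusted and DESeq2 counts given below. The gene lists below were chosen with earlier results of these data known, so their counts are a description. Of the same 4 genes, both MUT_CTCF libraries were above both WT_CTCF libraries for Cox4i2 and Lonp1, and below them for Ndufa4 and Cox4i1. Of all tested genes, 22.3% were above in this way and 22.3% were below, so a lack of overlap is common with 2 libraries a line. With the criterion of an unadjusted p under 0.05 and a fold change above 2, 0.947% of tested genes were higher and 0.357% were lower, and the fold changes of these 4 genes were all under 2. The smallest two-sided p that exact permutation of 2 and 2 libraries can reach is 0.333, so the tests rest on the spread that edgeR estimates over all genes. When low counts were not filtered, 26 genes were higher and 3 lower, and of the called list genes named below only Bnip3, Slc16a3 and Ldha still passed. A call lost without a MUT_CTCF library, here and below, is not particular to that gene, because every call then ended. With either MUT_CTCF library left out, 0 genes were called in any direction.

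The promoters of Lonp1 and Ndufa4 are shown because the first gene is held to answer to HIF-1 and the second is the constitutive partner of one that does, and that of Bnip3 because its profile was nearest to that of Ndufa4l2. RefSeq promoter entries (GRCm38.p6, another build than mm9) matched 2 of the 5 genes, and Ndufa4l2, Cox4i1 and Cox4i2 had none. Each line gives the 250 bases before the start, 5′ to 3′ on the strand of the gene, all 3 on the minus strand: Lonp1 at chr17:56626904-56627153, Ndufa4 at chr6:11907451-11907700 and Bnip3 at chr7:138909507-138909756. Capitals mark ACGTG and GCGTG, the core letters of the hypoxia response element, on either strand. CACGTG, which is also an E-box, holds ACGTG on both strands and counts as 2.
Lonp1: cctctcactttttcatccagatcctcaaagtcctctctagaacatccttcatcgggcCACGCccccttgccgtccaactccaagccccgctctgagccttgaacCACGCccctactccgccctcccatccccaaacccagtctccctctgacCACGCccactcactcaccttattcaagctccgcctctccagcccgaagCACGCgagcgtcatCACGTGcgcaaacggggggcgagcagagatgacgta
Ndufa4: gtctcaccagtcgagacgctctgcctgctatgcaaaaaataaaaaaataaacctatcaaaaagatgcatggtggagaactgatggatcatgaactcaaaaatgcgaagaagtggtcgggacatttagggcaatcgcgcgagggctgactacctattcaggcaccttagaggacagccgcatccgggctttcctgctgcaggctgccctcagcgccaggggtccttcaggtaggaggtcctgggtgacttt
Bnip3: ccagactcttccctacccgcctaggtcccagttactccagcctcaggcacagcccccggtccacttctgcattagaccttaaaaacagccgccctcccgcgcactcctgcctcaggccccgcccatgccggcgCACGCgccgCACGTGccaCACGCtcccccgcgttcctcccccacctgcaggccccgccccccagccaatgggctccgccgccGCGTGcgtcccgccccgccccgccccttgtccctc

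The Lonp1 window held ACGTG 2 times and GCGTG 4 times, the Bnip3 window held them 2 and 3 times, and the Ndufa4 window held neither. Among all 32851 promoter windows of the same length, 16.6% held ACGTG, 28.2% held GCGTG and 38.6% held either. Either was held by 13 of the 16 windows of the hypoxia genes that act on mitochondria, a list that includes Lonp1 and Bnip3 and in which some genes have more than 1 window, and by 9 of the 15 windows of complex IV subunits. A match is a run of letters and says nothing of binding.

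Among the 21 nuclear subunits and isoforms of complex IV, 19 were tested, and Ndufa4, Cox4i1 and Cox7b were lower at an adjusted p under 0.05. With the genes described above left out, 15 subunits had a median log2 fold change of -0.13, against 0.0034 over all tested genes, and 10 of them were below 0. With WT_CTCF replicate 1 left out the median was -0.071, and with MUT_CTCF replicate 1 left out it was -0.079, each over 16 subunits, since the filter on low counts then kept 1 more. Of the 15, 1 was lower and 0 were higher by edgeR (7 lower and 0 higher at an unadjusted p under 0.05, against 7.65% and 7.61% of all tested genes, and 0 in either direction by DESeq2). Without WT_CTCF replicate 2 there were 2 lower of 16, and without any other single library 0. The values of Ndufa4 and Cox4i1 thus sat inside the range of the other subunits. Cox7b, a small subunit of the core enzyme, went from 2842 ± 153 to 2455 ± 276 normalized counts (± SD, n = 2), or -0.21 as log2 fold change (SE 0.060, adjusted p = 0.0350 from edgeR). Its call ended with DESeq2, with library size only and without a filter. It also ended without WT_CTCF replicate 1 (log2 fold change -0.16, adjusted p = 0.3997), without MUT_CTCF replicate 1 (-0.33, adjusted p = 0.447) and without MUT_CTCF replicate 2 (-0.10, adjusted p = 0.642).

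**Figure D3:**
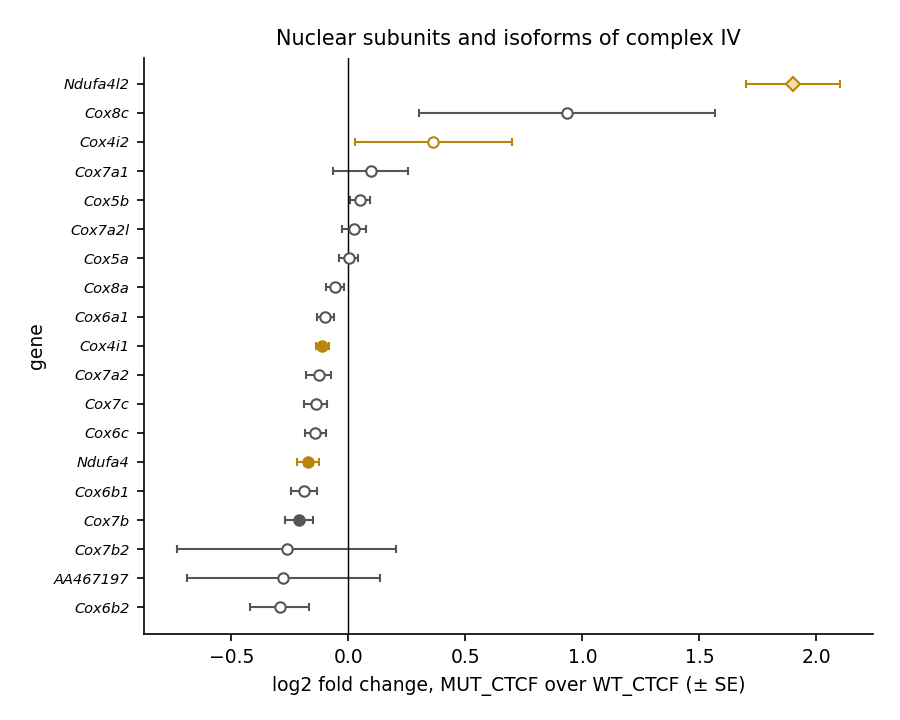
Log2 fold change of MUT_CTCF over WT_CTCF for the 19 tested nuclear subunits and isoforms of complex IV, with whiskers of 1 standard error. Gold marks the 4 genes described above, filled circles an adjusted p under 0.05 and the diamond Ndufa4l2, which carries no test. Ndufa4 at -0.17 and Cox4i1 at -0.11 lie among the other subunits, and Ndufa4l2 at 1.90 lies apart.

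None of the 23 tested assembly factors of complex IV was called by edgeR or by DESeq2, with 2 higher and 2 lower at an unadjusted p under 0.05 in edgeR, a share close to that of all tested genes. In edgeR with the replicate number as a block, 1 was lower, where that fit called 372 of all genes lower and 326 higher. Of the subunits that the mitochondrial genome encodes, mt-Co1 ranked 1 by RPKM among the tested genes, with 445725 and 440174 reads in WT_CTCF and 477587 and 446903 in MUT_CTCF. Its log2 fold change was 0.056 (SE 0.016, adjusted p = 0.0319 from edgeR), and it shares exon positions with mt-Ts1. The call ended with DESeq2, without a filter and with any 1 library left out (adjusted p from 0.0507 to 0.635), and the log2 fold change went down to 0.017 without MUT_CTCF replicate 1 and up to 0.092 without MUT_CTCF replicate 2. The other 2 subunits held 232 to 363 reads per library and did not pass. Only uniquely mapped reads were counted, and the search for stretches that also occur elsewhere in the genome did not cover the mitochondrially encoded subunits. How many of their reads were lost in this way was not tested. The gap in reads between mt-Co1 and the other 2 is therefore not a measure of their relative levels.

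Complex I, in which NDUFA4 was once placed, had 36 nuclear subunits tested of 37 listed. Of these, 34 had a log2 fold change below 0 (29 with scaling by library size only and 23 without WT_CTCF replicate 1), where 49.2% of all tested genes did, and 2 were lower and 0 higher by edgeR (7 lower and 0 higher at an unadjusted p under 0.05, against 7.65% and 7.61% of all tested genes, and 0 in either direction by DESeq2). Their median was -0.065 (-0.034 without WT_CTCF replicate 1), smaller in size than the -0.17 of Ndufa4 and the -0.11 of Cox4i1. Ndufb3 (log2 fold change -0.30, SE 0.077, adjusted p = 0.0167 from edgeR) and the acyl carrier protein Ndufab1 (-0.16, SE 0.046, adjusted p = 0.0357) were the lower ones, and both calls ended with DESeq2 and without a filter, that of Ndufab1 also with library size only. Both ended as well with any 1 library left out (adjusted p from 0.0986 to 0.477 for Ndufb3 and from 0.162 to 0.508 for Ndufab1).

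Mitochondrial proteases and chaperones, the neighbours of Lonp1 by function, had 2 lower and 0 higher genes by edgeR among 27 tested (4 lower and 4 higher at an unadjusted p under 0.05, 0 in either direction by DESeq2). Clpp, the proteolytic subunit of the other soluble matrix protease, had a log2 fold change of -0.16 (SE 0.046, adjusted p = 0.0308 from edgeR). Hspe1, the partner of the matrix chaperonin, had -0.11 (SE 0.030, adjusted p = 0.0335) and shares exon positions with Hspd1. Lonp1 at 0.042 lay on the other side of 0 from both, and both of their calls ended with DESeq2, with library size only, without a filter and with any 1 library left out (adjusted p from 0.0593 to 0.511 for Clpp and from 0.109 to 0.484 for Hspe1).

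HIF subunits and oxygen sensors included 2 higher and 0 lower genes of 10 tested at an adjusted p under 0.05, by edgeR (against 1.56% and 1.61% of all tested genes) and by DESeq2 (against 131 and 114 of 16264), both of them prolyl hydroxylases that mark HIF for destruction when oxygen is present. At an unadjusted p under 0.05 in edgeR, 3 were higher and 2 lower. The lower ones, named here after their values were seen, were Hif1a (log2 fold change -0.16, adjusted p = 0.133) and the remaining prolyl hydroxylase Egln2 (-0.14, adjusted p = 0.115), neither of which passed. Among the higher ones, Arnt2 (0.43, adjusted p = 0.107 from edgeR), also named after its values were seen, did not pass. Egln3 rose from 190 ± 24.9 to 368 ± 39.5 normalized counts (SD, n = 2), with a log2 fold change of 0.95 (SE 0.157, adjusted p = 4.05e-05 from edgeR). Egln1 had a log2 fold change of 0.30 (SE 0.054, adjusted p = 2.57e-04). Neither Egln3 nor Egln1 passed without a filter on low counts. Their log2 fold changes were 1.06 and 0.26 without MUT_CTCF replicate 1, and 0.84 and 0.33 without MUT_CTCF replicate 2.

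The list of hypoxia genes that act on mitochondria is broader than its name, since it also holds Slc16a3 and Ldha, which handle lactate. Of its genes, 16 were tested, and 13 with Ndufa4l2, Cox4i2 and Lonp1 left out. Of these 13, 4 were higher and 0 lower at an adjusted p under 0.05 in edgeR, against 1.56% and 1.61% of all tested genes (5 higher and 1 lower at an unadjusted p under 0.05). The list was chosen with earlier results of these data known, so its counts and p-values are a description and no independent test. DESeq2 called 3 higher and 0 lower, against 131 and 114 of 16264 genes. Without either MUT_CTCF library 0 were called. Their median log2 fold change was 0.12, against 0.0034 over all tested genes. Bnip3, a mitophagy receptor, had 296 and 295 reads in WT_CTCF and 955 and 848 in MUT_CTCF. Both MUT_CTCF libraries were far above both WT_CTCF libraries, and the log2 fold change was 1.60 (SE 0.113, adjusted p = 1.71e-16 from edgeR). Slc16a3, the lactate exporter, had a log2 fold change of 1.03 (SE 0.061, adjusted p = 1.58e-19) and shares exon positions with Csnk1d. Ldha, which makes lactate from pyruvate, had 0.30 (SE 0.024, adjusted p = 5.22e-14), and Pdk1, the kinase that inhibits pyruvate dehydrogenase and is named here after its values were seen, had 0.37 (SE 0.090, adjusted p = 0.0110), a call that ended with DESeq2 and without WT_CTCF replicate 1 (adjusted p = 0.176). Without a MUT_CTCF library the adjusted p was 0.0940 and 0.0824 for Bnip3, 0.0607 and 0.0824 for both Slc16a3 and Ldha, and 0.484 and 0.477 for Pdk1 (replicate 1 and replicate 2 left out). Cox4i2 and Lonp1, at 0.36 and 0.042, did not pass in this list. The 3 regulators tied to Cox4i2 transcription did not pass in edgeR or DESeq2 either, with 1 lower at an unadjusted p under 0.05 in edgeR. With the replicate number as a block, edgeR called 1 of them lower at an adjusted p under 0.05. That fit called 372 of all genes lower and 326 higher.

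**Figure D4:**
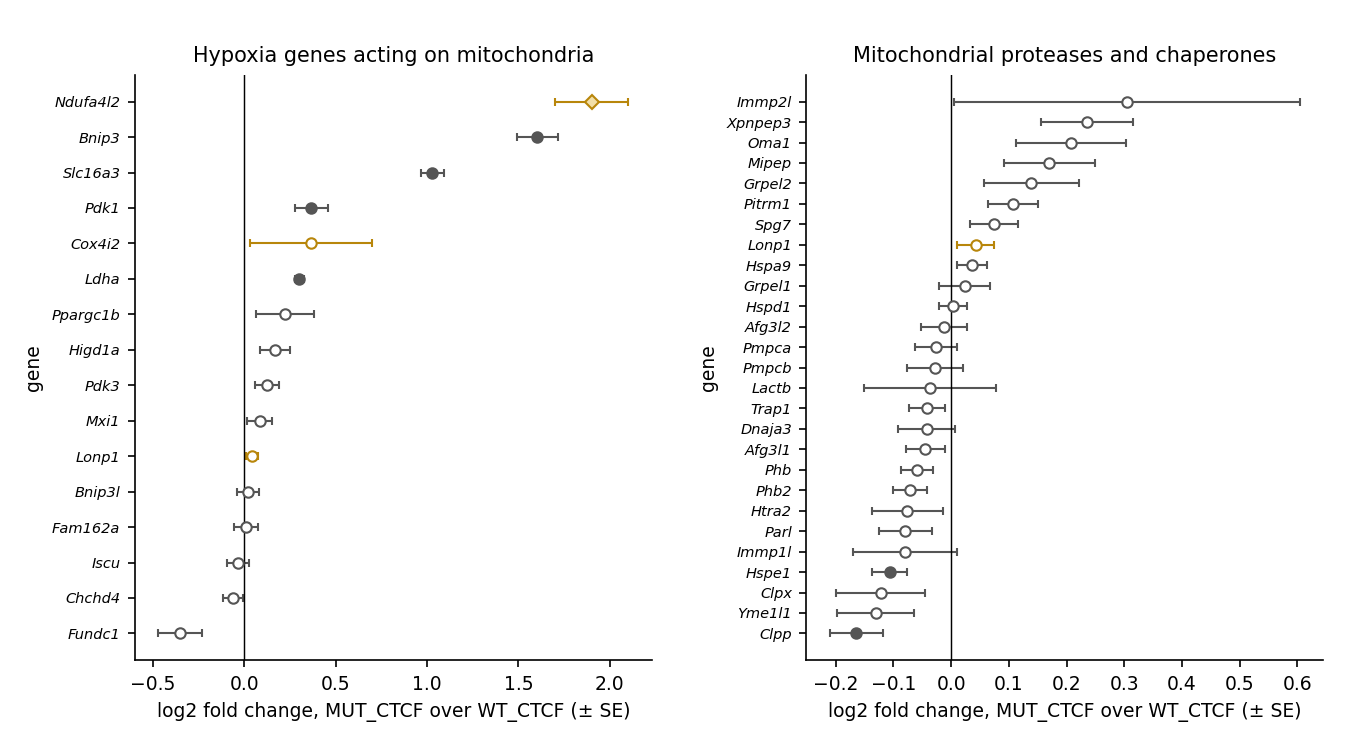
Log2 fold change of MUT_CTCF over WT_CTCF, with whiskers of 1 standard error, for the 16 tested hypoxia genes that act on mitochondria (left) and the 27 tested mitochondrial proteases and chaperones (right), on different horizontal scales. Gold marks Ndufa4l2, Cox4i2 and Lonp1, filled circles an adjusted p under 0.05 and the diamond Ndufa4l2, which carries no test. Ndufa4l2 at 1.90 and Bnip3 at 1.60 lie highest in the left panel, and Lonp1 at 0.042 lies near 0 in both.

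Genes were ranked by how like their profile was to that of Ndufa4l2, as the Euclidean distance between centred log2 normalized counts over the 4 libraries, among 11586 named genes with a mean of at least 100 normalized counts. The nearest were Bnip3 (distance 0.308), the annexin gene Anxa2 (0.577), the lysyl oxidase gene Loxl2 (0.608), Ndrg1 (0.672) and the keratin gene Krt19 (0.796). Since Ndufa4l2 was selected on its rise, genes near it had to differ between the lines, and their log2 fold changes of 1.16 to 1.60 are given here as a description. Bnip3 alone of them has a p-value above, as one of the listed hypoxia genes. Their profiles had the same 2 high and 2 low libraries. Anxa2 shares exon positions with Gm16144, and Ndrg1 with Gm17035 and Gm2895.

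**Figure D5:**
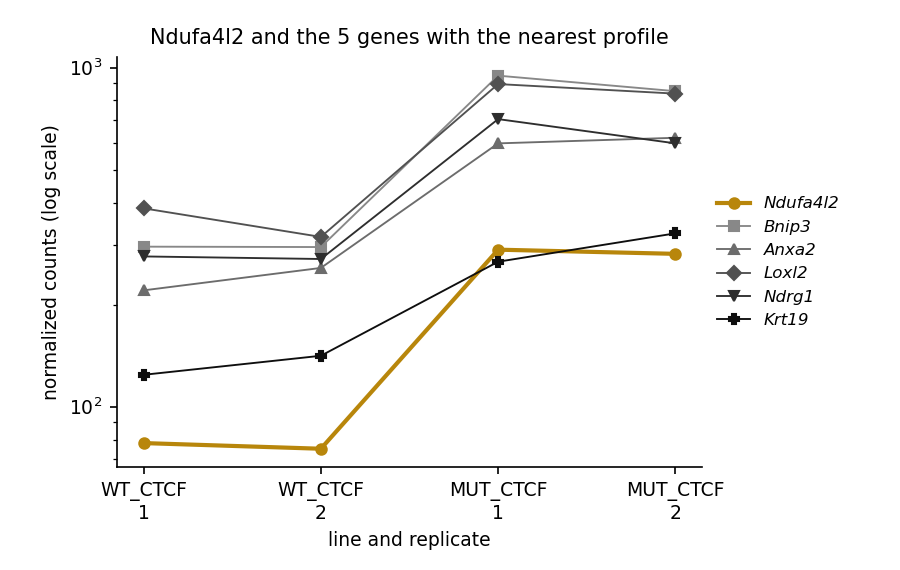
Normalized counts on a log axis of Ndufa4l2 (gold) and the 5 genes nearest to it in profile, in each library. Lines only join the points of a gene. Every gene is higher in both MUT_CTCF libraries than in both WT_CTCF libraries, and Ndufa4l2 is the lowest of the 6 in WT_CTCF, at 78.1 and 75.2 normalized counts.

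Ndufa4l2 ends tail to tail with Shmt2, the gene of the mitochondrial serine hydroxymethyltransferase on the opposite strand, and 14 of its 960 exon positions (1.46%) are shared. The strand used in counting is not given in the sources used here, so reads on these positions are uncertain for both genes. Shmt2 had 12919 and 12595 reads in WT_CTCF and 13379 and 14002 in MUT_CTCF, with a log2 fold change of 0.096 (SE 0.032, adjusted p = 0.0888 from edgeR). With MUT_CTCF replicate 2 left out the log2 fold change was 0.052, and with MUT_CTCF replicate 1 left out it was 0.14. In edgeR with the replicate number as a block, Shmt2 passed (adjusted p = 0.0424). For every 100 reads on Shmt2 there were 0.604 and 0.595 on Ndufa4l2 in WT_CTCF and 2.19 and 2.01 in MUT_CTCF. These ratios hold the difference on which Ndufa4l2 was selected, and the part of the shared positions in its counts was not tested. Of 11 genes of serine and one-carbon metabolism, 4 were higher and 0 lower by edgeR (6 higher and 1 lower at an unadjusted p under 0.05, 4 higher and 0 lower by DESeq2): Phgdh and Psat1 of serine synthesis and Mthfd2 and Mthfd1l of the mitochondrial folate cycle, with log2 fold changes of 0.16 to 0.24. None of the 4 passed without either MUT_CTCF library (adjusted p from 0.349 to 0.484), Mthfd2 did not pass without WT_CTCF replicate 2 (0.0529), and Mthfd1l had a log2 fold change of 0.16 without MUT_CTCF replicate 1.

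Genes that start within 5000 bases of a member were Phf14 beside Ndufa4, Cox4nb beside Cox4i1 and Tmem146 beside Lonp1. Their log2 fold changes were -0.079, -0.071 and 0.46 (SEs 0.123, 0.037 and 0.308), and none passed at an adjusted p under 0.05 (0.843, 0.360 and 0.519 from edgeR). With 1 library left out these values moved widely, most of all without a MUT_CTCF library: without replicate 1 they were -0.13, -0.0085 and 0.22, and without replicate 2 they were -0.028, -0.14 and 0.67. Cox4nb differed from Cox4i1 in that its libraries overlapped between the lines.

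The mESC label was checked against 10 pluripotent cell markers, all of which were tested. They summed to 301031 and 300134 normalized counts in WT_CTCF and 298915 and 298246 in MUT_CTCF, led by Nanog with 57886 to 60106 normalized counts per library. Sox2 was higher (log2 fold change 0.095) and Utf1 and Dppa5a were lower (-0.21 and -0.099) at an adjusted p under 0.05 in edgeR, and the calls of Sox2 and Dppa5a ended with DESeq2. With any 1 library left out the calls of Sox2 (adjusted p from 0.205 to 0.477) and Utf1 (0.0573 to 0.484) ended. That of Dppa5a ended without WT_CTCF replicate 1 (log2 fold change -0.055, adjusted p = 0.580) and without MUT_CTCF replicate 1 (0.511) or 2 (0.529).

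Pericytes are known for high Ndufa4l2 and Cox4i2, and 7 of 12 pericyte and smooth muscle markers passed the filter. Rgs5, Kcnj8, Abcc9 and Higd1b, picked from the 12 after their values were seen, had at most 26 reads in any library, and Kcnj8 and Abcc9 at most 1. They do not stand for the whole list. The list summed to 5327 and 5766 normalized counts in WT_CTCF and 6072 and 6320 in MUT_CTCF, most of it Notch3 (3924 and 4353 against 4692 and 4809). Notch3 was higher (log2 fold change 0.20, SE 0.047, adjusted p = 0.00731 from edgeR) and shares exon positions with Gm17276. Its call ended without WT_CTCF replicate 1 (log2 fold change 0.13, adjusted p = 0.407) and without MUT_CTCF replicate 1 (0.489) or 2 (0.529). Of the 7 tested markers 3 were above 0 and 4 below, and without WT_CTCF replicate 1 it was 6 and 2 of 8. The part of these markers in the values of Ndufa4l2 was not tested.

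Of 9 fibroblast and feeder markers, 5 were tested and 0 were called by edgeR or DESeq2 (0 higher and 1 lower at an unadjusted p under 0.05 in edgeR). They summed to 1044 and 1016 normalized counts in WT_CTCF and 1074 and 1260 in MUT_CTCF, led by Thy1 at 597 to 748, while Lum had 0 reads in every library, which allows up to 3 reads, or 0.0740 CPM, in the library with the highest limit. Of 6 neural markers, 4 were tested, and Tubb3, their most abundant gene, was lower (log2 fold change -0.19, adjusted p = 5.01e-05 from edgeR, 0.353 and 0.349 without MUT_CTCF replicate 1 and 2). The other 3 were above 0 and did not pass, and without MUT_CTCF replicate 1 only 1 was above 0. The list summed to 16377 and 16431 normalized counts in WT_CTCF and 14841 and 15085 in MUT_CTCF, most of it Tubb3. All 10 primitive endoderm and trophoblast markers were tested, and Cdx2 (-0.97, adjusted p = 2.27e-04) and Krt8, their most abundant gene (-0.30, adjusted p = 0.0319), were lower, the call of Krt8 ending with DESeq2 and with library size only. The call of Cdx2 ended without MUT_CTCF replicate 1 (0.447) or 2 (0.381), and that of Krt8 with any 1 library left out (0.131 to 0.486). Of the 10, 5 were above 0 and 5 below, and 2 were higher and 2 lower at an unadjusted p under 0.05. The 2 higher, Gata6 (0.95, adjusted p = 0.0733) and Sox17 (0.75, adjusted p = 0.259), are named after their values were seen and did not pass. That list summed to 2751 and 2625 normalized counts in WT_CTCF and 2346 and 2596 in MUT_CTCF. The part of these markers in the values of the 5 genes was not tested.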

How the data were processed

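RNA was measured in 4 mESC libraries, 2 of WT_CTCF and 2 of MUT_CTCF, and the members and gene lists were chosen with earlier results of these data known. The deposited counts are raw reads per gene: the authors aligned trimmed reads to mm9 with STAR and counted uniquely mapped reads with HTSeq-count. The submitters' processing notes name Trim Galore 0.4.4 and HTSeq 0.9.1. The annotation release and the strand used in counting are not given in the sources used here. A table of the authors' own edgeR comparison (log2 fold change, average log2 CPM, p and FDR) was not used. Value columns were all mapped to a library by name.

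GENCODE M1 (NCBIM37, the sequence of mm9) named 37205 of the 37620 identifiers. Genes were kept by filterByExpr at a minimum of 10 counts, which left 16264 genes with 99.96% of the counts, and scaled by TMM (factors 0.994 to 1.01). Each was tested with glmQLFit and glmQLFTest of edgeR 4.0.16 (R 4.3.3) on the line alone, two-sided, with Benjamini-Hochberg adjustment over all tested genes. The common dispersion was 0.00220. Standard errors come from the F statistic (the absolute log2 fold change over its root), and approximate 95% intervals use the normal quantile. The fits were tested on simulated counts. RPKM uses the merged exon length and the TMM-scaled library. Counts of a library carry a limit of 3 reads for a gene at 0, or 0.0732 to 0.0740 CPM.

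Replicates differed by more than sampling noise (chi-square per degree of freedom 3.61 in WT_CTCF and 4.27 in MUT_CTCF). Named were the 5 genes, genes that share their exon positions or start within 5000 bases, the 4 smallest p-values per list among genes past an adjusted p of 0.05, the most abundant gene and the genes at 0 of each list of another cell type, and the 5 profiles nearest to Ndufa4l2, from log2 of normalized counts plus 0.5. Pet117, Ndufb1 and Sox1 were not analysed here. Alternatives were DESeq2 1.42.0, its size factors in edgeR, library size only, no filter, a replicate block, 10 reads or more in every library, each library left out in turn and, for the shares, other exon lengths. The alternatives for counts of list members were added after seeing the data.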

Additional observations from a re-analysis of the deposited data

How the results depend on the processing

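Every log2 fold change of the 5 genes kept its sign under all alternatives. Scaling moved the median log2 fold change of all genes little, from 0.0034 to 0.016 with library size only.

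With DESeq2, 131 genes were higher and 114 lower at an adjusted p under 0.05, 96 and 30 passed the criterion of fold change above 2 and unadjusted p under 0.05, 1 complex IV subunit and 0 complex I subunits were lower, and Ndufa4 (-0.17) no longer passed. With library size only, 152 genes, 1 complex IV and 1 complex I subunit were lower, and Ndufa4 (-0.16) no longer passed. Without a filter, 26 genes were higher and 3 lower, 0 subunits of complex IV or complex I were lower, and Ndufa4 (-0.17) and Cox4i1 (-0.11) no longer passed. That fit adds genes with few reads but does not hold every gene of the count table. It held 24 of the 25 assembly factors found by name and 8 of the 9 fibroblast and feeder markers. Each of these lists has 1 gene at 0 reads in every library. With at least 10 reads in every library, 82 genes were higher and 35 lower at the fold change above 2. The cause of the other changes was not tested.

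With 1 library left out, a line has a single library, assumed to vary like the other line. Genes at an adjusted p under 0.05 then numbered 0 to 140 higher and 0 to 102 lower, with 0 in both directions without either MUT_CTCF library. At the fold change above 2, 102 to 234 genes were higher. Complex IV subunits numbered 0 to 2 lower and 0 to 1 higher, complex I subunits 0 to 1 lower, and hypoxia genes that act on mitochondria 0 to 5 higher. Both of these higher counts include Ndufa4l2, which was selected on its rise, and without the 5 genes they are 0 and 0 to 4. Log2 fold changes ran from -0.21 to -0.13 for Ndufa4 and from -0.14 to -0.088 for Cox4i1, neither passing, from 1.87 to 1.93 for Ndufa4l2, from 0.32 to 0.40 for Cox4i2 and from 0.020 to 0.063 for Lonp1. The ratio of the Ndufa4l2 shares ran from 3.98 to 4.20, and from 3.98 to 4.09 with other lengths.

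Replicate numbers gave no sign of pairing: the difference between replicates 1 and 2 correlated at -0.019 between the lines across genes. This does not settle whether the samples were prepared in pairs. Over all genes, edgeR with the replicate number as a block called 326 higher and 372 lower, against 253 and 262 without the block. With the replicate block, 5 complex IV subunits, 3 complex I subunits, 1 assembly factor and 1 regulator of Cox4i2 were lower, 5 one-carbon genes and 2 pluripotent markers were higher, Ndufa4 had a log2 fold change of -0.17 (adjusted p = 0.0105) and Shmt2 passed (adjusted p = 0.0424, range over its alternatives 0.0424 to 0.607).

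For the other named genes, 75 of the values with a library left out and 36 of the values under the other alternatives kept their sign and lost the call, 1 gained it and none changed sign. The lost calls include values of Anxa2, Loxl2, Ndrg1 and Krt19, which are given as a description and carry no test. Cox4i2 and Ndufa4l2 rest on under 300 reads a library, which limits what can be said of Cox4i2 most.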
